A study of Mus musculus with 11 samples.

Results

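The forkhead genes described here are 35 mouse genes of 17 subfamilies, lettered FoxA to FoxS, and the data are the binding peaks of 5 transcription factors (TFs) around them. A peak was counted for a gene when its midpoint lay in the gene body or within 20 kb to either side, on the mm9 genome. Over the 10 deposited peak lists, 1790 of 1004445 peaks met this rule, and 34 of them lay in the windows of a pair of neighbouring genes, Foxd2 and Foxe3 or Foxc2 and Foxl1. The cells were epiblast stem cells (EpiSCs) of the 129/Sv strain, which represent the epiblast just before the germ layers form. They were kept without feeder cells in N2/B27-supplemented DMEM/F12 with activin at 20 ng/ml and Fgf2 at 10 ng/ml. EpiSCA denotes cells of the same kind from which activin had been withdrawn for 18 h. In every ChIP-seq library the cells were transiently transfected with a pCAGGS vector that expressed 1 TF with a biotinylation tag (BLRP) together with the biotin ligase BirA, biotin was added, and the bound fragments were recovered on streptavidin beads. The tagged TF was thus added to the endogenous TF. ZIC2, OTX2, SOX2, POU5F1 and POU3F1 were each profiled in 1 library per culture, and the list of the EpiSC library without ChIP, which served as the reference for peak calling, was not analysed here. Since each list came from 1 library, the comparisons below are between libraries, without a replicate check and without a test. The lists hold no expression values, so whether any forkhead gene was transcribed, and the identity of the cells, could not be examined.

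Forkhead proteins share a winged helix domain that binds DNA, and some of them can bind sites in closed chromatin. In the embryo they act in the specification of endoderm, mesoderm, placodes, neurons and ciliated cells, whereas the FoxO, FoxK, FoxM and FoxP proteins act in most tissues, in the response to insulin and growth factors and in the cell cycle. In the epiblast many of the lineage genes are kept inactive and become active in the derivatives of individual germ layers. The 5 TFs profiled are regulators of the epiblast state and of the neural plate: ZIC2 is a zinc finger protein, OTX2 a paired-type homeodomain protein, SOX2 an HMG box protein, and POU5F1 and POU3F1 recognize the octamer.

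The DNA under the strongest forkhead peaks is shown with matches to the motifs that are counted below. The motifs were taken from textbook binding sequences and the study, and not from the sequences printed here. For each TF, the sequence is the centre of the highest-scoring EpiSC peak whose centre touched no annotated exon, followed by the centre of the narrowest peak in each of the 3 sites with the most TFs. Capitals mark a match, on either strand, to the motif of that TF (CCTGCTG for ZIC2, GGATTA for OTX2, ACAAAG or ACAATG for SOX2, ATGCAAAT or ATGCATAT for POU5F1 and POU3F1). At the sites of several TFs capitals mark any of these. Sequences are from mm9, written 5′ to 3′.
Foxm1, ZIC2, chr6:128305538-128305738, plus strand: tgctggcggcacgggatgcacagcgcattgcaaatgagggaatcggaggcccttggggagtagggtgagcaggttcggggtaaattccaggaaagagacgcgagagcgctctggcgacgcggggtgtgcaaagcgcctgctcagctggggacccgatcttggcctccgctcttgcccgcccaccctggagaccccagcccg
Foxo3, OTX2, chr10:41991761-41991961, plus strand: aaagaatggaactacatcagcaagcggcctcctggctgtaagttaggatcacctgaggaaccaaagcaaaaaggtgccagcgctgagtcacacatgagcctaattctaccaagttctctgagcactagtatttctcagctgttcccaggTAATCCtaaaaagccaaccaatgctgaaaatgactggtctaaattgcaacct
Foxb1, SOX2, chr9:69614319-69614519, plus strand: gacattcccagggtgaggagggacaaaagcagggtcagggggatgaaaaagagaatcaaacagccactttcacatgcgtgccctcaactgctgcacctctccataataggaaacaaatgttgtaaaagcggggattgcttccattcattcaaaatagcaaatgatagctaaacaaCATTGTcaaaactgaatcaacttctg
Foxn4, POU5F1, chr5:114707627-114707827, plus strand: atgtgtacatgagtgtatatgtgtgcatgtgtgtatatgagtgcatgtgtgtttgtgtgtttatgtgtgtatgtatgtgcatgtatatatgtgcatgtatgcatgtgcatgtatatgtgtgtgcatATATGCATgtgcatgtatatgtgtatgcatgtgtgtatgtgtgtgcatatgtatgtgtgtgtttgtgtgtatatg
Foxp2, POU3F1, chr6:15072488-15072688, plus strand: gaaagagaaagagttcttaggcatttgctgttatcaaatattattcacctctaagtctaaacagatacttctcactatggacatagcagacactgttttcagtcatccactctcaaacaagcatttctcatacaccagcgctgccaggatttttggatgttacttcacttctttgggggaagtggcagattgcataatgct
Foxn3, site of 5 TFs, chr12:100538165-100538365, plus strand: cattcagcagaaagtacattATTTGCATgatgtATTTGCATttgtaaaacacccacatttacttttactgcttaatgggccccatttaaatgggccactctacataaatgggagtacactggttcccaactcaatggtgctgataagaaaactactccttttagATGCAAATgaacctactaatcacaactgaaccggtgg
Foxb1, site of 5 TFs, chr9:69618565-69618765, plus strand: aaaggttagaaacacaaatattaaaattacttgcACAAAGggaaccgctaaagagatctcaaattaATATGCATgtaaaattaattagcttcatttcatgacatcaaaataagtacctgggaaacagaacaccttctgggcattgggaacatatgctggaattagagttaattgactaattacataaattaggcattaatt
Foxd1, site of 4 TFs, chr13:99123670-99123870, plus strand: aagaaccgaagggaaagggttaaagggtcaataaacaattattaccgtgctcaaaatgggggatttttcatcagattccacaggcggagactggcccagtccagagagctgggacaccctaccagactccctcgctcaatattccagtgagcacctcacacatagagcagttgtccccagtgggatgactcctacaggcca

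The ZIC2 peak next to Foxm1, which encodes a driver of the G2/M phase, scored 3139 in EpiSC and 3100 in EpiSCA. Its midpoint lay at -7347 bp from the transcription start site (TSS) of Foxm1 and within 2 kb of the TSS of another gene. The score is that of the peak caller, 10 times the negative log10 of its p-value, and 50 was the lowest in any list. A score of exactly 3100 recurred, at 5 forkhead POU3F1 peaks in EpiSC and 9 in EpiSCA, and few peaks scored above it. Differences that involve 3100 are therefore not to be read as sizes. The OTX2 peak lay in an intron of Foxo3, a target of insulin and AKT signalling, 4687 bp after a TSS, and scored 879 in EpiSC and 916 in EpiSCA. The SOX2 peak lay at -5672 bp from the TSS of Foxb1, a gene of the diencephalon, and scored 545 in EpiSC and 641 in EpiSCA. The POU5F1 peak in an intron of Foxn4, a gene of retinal and spinal interneurons, scored 2684 in EpiSC and 3100 in EpiSCA. In its centre a run of 127 bases alternated purines and pyrimidines without a break. The POU3F1 peak was 5495 bp wide, lay in an intron of Foxp2 and scored 3100 in both cultures, a score shared by 5 forkhead peaks of the EpiSC list. The central window held the motif of the TF at the OTX2, SOX2 and POU5F1 peaks and held none at the ZIC2 and POU3F1 peaks. The Foxn3 window, the centre of a SOX2 peak, carried 3 octamers. The Foxb1 window, the centre of a POU3F1 peak, carried an octamer variant and an ACAAAG. In EpiSC that peak overlapped OTX2 and no other TF, and the SOX2 peak joined to this site (chr9:69613859-69614978) lay outside the window. The Foxd1 window, the centre of an OTX2 peak, held no listed motif. This peak overlapped ZIC2 and SOX2 in EpiSC but not POU5F1.

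ZIC2 gave the most peaks near forkhead genes in both cultures. It had 351 peaks in EpiSC and 314 in EpiSCA, OTX2 had 204 and 174, POU3F1 148 and 138, POU5F1 114 and 181, and SOX2 73 and 93. The whole lists held between 62457 and 126908 peaks, so the numbers were set against the windows of all 22367 protein-coding genes. ZIC2 peaks numbered 11.1 per 100 kb of forkhead window in EpiSC (exact 95% interval 10.0 to 12.4), against 6.86 over all genes, a ratio of 1.63 (1.46 to 1.80). In EpiSCA the ratio was 1.62 (1.45 to 1.81). These intervals cover counting error only, and neighbouring peaks are not independent. For OTX2 the ratio was 1.15 (1.00 to 1.32) in EpiSC and 0.970 (0.831 to 1.12) in EpiSCA, and for SOX2 it was 0.930 (0.729 to 1.17) and 0.893 (0.721 to 1.09).

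The ratios of both POU factors rested on Foxp2, whose window of 580.6 kb is the longest of the 35. For POU5F1 the ratio was 1.47 (1.21 to 1.77) in EpiSC and 1.19 (1.02 to 1.38) in EpiSCA, and without Foxp2, an exclusion chosen after the values were seen, it was 0.776 (0.574 to 1.03) and 0.686 (0.548 to 0.849). For POU3F1 the ratio fell from 1.27 (1.08 to 1.49) to 0.390 (0.275 to 0.538) in EpiSC and from 1.32 (1.11 to 1.56) to 0.446 (0.315 to 0.612) in EpiSCA. Away from Foxp2, forkhead windows held fewer peaks of either POU factor per 100 kb than the windows of all genes, in both cultures. For POU5F1 in EpiSC the interval reached above 1. The windows of all genes kept their own genes rich in POU peaks, so removing Foxp2 from the forkhead side alone lowers these ratios by construction. No conclusion about the remaining forkhead genes is drawn from them. The ZIC2 ratio was 1.96 (1.76 to 2.18) in EpiSC and 1.94 (1.73 to 2.17) in EpiSCA without that gene. The SOX2 ratio was then 0.750 (0.553 to 0.994) and 0.683 (0.518 to 0.882).

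Each of the 35 genes had a ZIC2 peak in its window in both cultures, where 87.8% of all protein-coding genes had one in EpiSC and 86.7% in EpiSCA. OTX2 peaks were found at 33 genes in EpiSC (all genes 86.6%) and 31 in EpiSCA (88%), and Foxq1 and Foxs1 had none in either culture. SOX2 peaks were found at 19 genes in each culture (all genes 57% and 68.6%), 15 of them in common. POU5F1 peaks were found at 25 genes in EpiSC (57.1%) and 28 in EpiSCA (73.2%), and POU3F1 peaks at 14 (37%) and 16 (40%). As shares of the 35, these counts are 100%, 94.3%, 54.3%, 71.4% and 40% in EpiSC, in the same order of TFs. The shares of OTX2, SOX2 and POU3F1 in EpiSC differ from those over all genes by no more than a few genes of the 35. In EpiSC 9 genes had peaks of all 5 TFs in their windows, 11 of 4, 8 of 3, 6 of 2, and Foxs1 of ZIC2 alone. The matching shares over all genes are not given here.

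**Figure D1:**
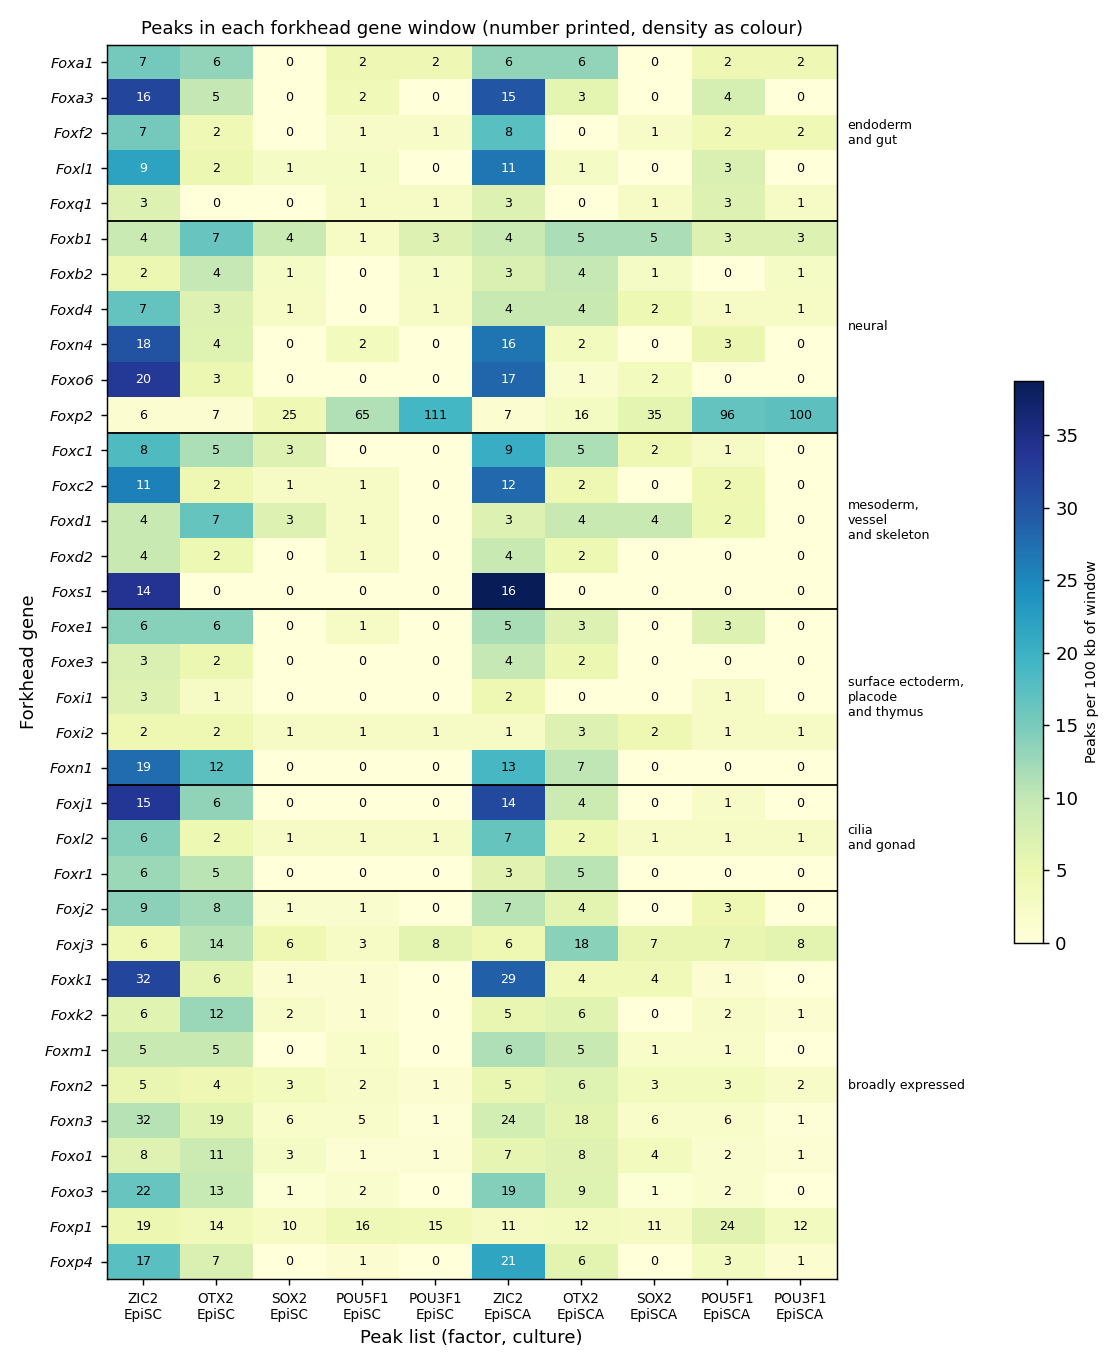
Number of peaks (printed) and peaks per 100 kb of window (colour) for each forkhead gene (rows, grouped by role) in each of the 10 peak lists (columns). ZIC2 has peaks in every row, and the POU5F1 and POU3F1 numbers are led by Foxp2, with 65 and 111 peaks in EpiSC.

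The 5 genes of endoderm and gut carried 42 ZIC2 peaks in EpiSC, 18.6 per 100 kb (13.4 to 25.2). Foxa3, a liver and gut factor, had 45.8 peaks per 100 kb summed over the 5 EpiSC lists, the second highest density, made of 16 ZIC2, 5 OTX2 and 2 POU5F1 peaks. In EpiSCA it had 15 ZIC2, 3 OTX2 and 4 POU5F1 peaks and again none of SOX2 or POU3F1. Foxa1, a pioneer factor of the endoderm, had 7 ZIC2, 6 OTX2, 2 POU5F1 and 2 POU3F1 peaks in EpiSC and 6, 6, 2 and 2 in EpiSCA. A site that spans its 3′ end held ZIC2, OTX2, POU5F1 and POU3F1 together. Foxl1, a gene of the gut mesenchyme, had 9 ZIC2 peaks in EpiSC and 11 in EpiSCA, some shared with the window of Foxc2. Foxf2, of the gut and palate mesenchyme, had 7 and 8 ZIC2 peaks, and Foxq1 had 3 and 3. Over this group SOX2 had 1 peak in EpiSC and 2 in EpiSCA.

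The 5 genes of mesoderm, vessels and skeleton had no POU3F1 peak in either culture, which allows up to 1.73 per 100 kb. All 5 have a body under 10 kb. Of all such genes, 30.4% had a POU3F1 peak in EpiSC and 32.3% in EpiSCA, so this absence is not read as a property of the group. ZIC2 had 41 peaks there in EpiSC and 44 in EpiSCA. Foxs1 was occupied by ZIC2 alone, with 14 peaks in EpiSC and 16 in EpiSCA in a window of 41.3 kb, and ZIC2 peaks covered 54.6% and 49.4% of that window. Foxc2, needed for lymphatic vessels, had 11 and 12 ZIC2 peaks that covered 41.4% and 37.3% of its window. Foxc1, its close relative in the eye and skeleton, had 8 and 9 ZIC2 peaks and 5 OTX2 peaks in each culture. Foxd1, a gene of the kidney stroma, had 4 ZIC2, 7 OTX2, 3 SOX2 and 1 POU5F1 peaks in EpiSC and 3, 4, 4 and 2 in EpiSCA. Foxd2 had 4 ZIC2 and 2 OTX2 peaks in each culture, and a POU5F1 peak in EpiSC.

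Among the 6 neural genes, Foxp2 stood apart from the rest. The group held 116 POU3F1 peaks in EpiSC, 14.0 per 100 kb (11.6 to 16.8), and 111 of them lay at Foxp2. Foxo6, expressed in the hippocampus, had 20 ZIC2 peaks in EpiSC and 17 in EpiSCA, 3 and 1 OTX2 peaks, and no POU5F1 or POU3F1 peak. Foxn4 had 18 and 16 ZIC2 peaks and 2 and 3 POU5F1 peaks. Foxd4, a gene of the early neural ectoderm, had 7 and 4 ZIC2 peaks, 3 and 4 OTX2 peaks, and 1 POU3F1 peak in each culture. The FoxB genes had a different mixture. Foxb1 had 4 ZIC2, 7 OTX2, 4 SOX2, 1 POU5F1 and 3 POU3F1 peaks in EpiSC and 4, 5, 5, 3 and 3 in EpiSCA, and Foxb2 had 2 and 3 ZIC2 peaks and 4 OTX2 peaks in each culture.

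The 5 genes of surface ectoderm, placodes and thymus held 33 ZIC2 peaks in EpiSC and 25 in EpiSCA, and 23 and 15 OTX2 peaks. Foxn1, the gene of thymic epithelium that is mutated in nude mice, had 44.9 peaks per 100 kb over the 5 EpiSC lists, the third highest density, from 19 ZIC2 and 12 OTX2 peaks. In EpiSCA it had 13 ZIC2 and 7 OTX2 peaks, and SOX2, POU5F1 and POU3F1 gave none in either culture. Foxe1, of the thyroid, had 6 ZIC2 and 6 OTX2 peaks in EpiSC and 5 and 3 in EpiSCA. Foxe3, of the lens, had 3 and 4 ZIC2 peaks, Foxi1, of the inner ear, 3 and 2, and Foxi2 2 and 1. The smallest number of ZIC2 peaks in any window was thus 1, at Foxi2 in EpiSCA, where its score was 51.8.

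The 3 genes of cilia and gonad included the highest density in EpiSC. Foxj1, the master regulator of motile cilia, had 47.0 peaks per 100 kb over the EpiSC lists, from 15 ZIC2 and 6 OTX2 peaks. ZIC2 peaks covered 49.9% of its window in EpiSC and 42.8% in EpiSCA, where it had 14 ZIC2, 4 OTX2 and 1 POU5F1 peaks. In EpiSCA its density of 42.5 was below those of Foxb1 (46.3), Foxa3 (43.8) and Foxp2 (43.7). Foxl2, of the ovary, had 6 and 7 ZIC2 peaks and 2 OTX2 peaks in each culture. Foxr1 had 6 and 3 ZIC2 peaks and 5 OTX2 peaks in each culture.

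The 11 broadly expressed genes held 161 ZIC2 and 113 OTX2 peaks in EpiSC. Foxk1 and Foxn3 had the most ZIC2 peaks of all members, 32 each in EpiSC and 29 and 24 in EpiSCA, followed in EpiSC by Foxo3 with 22. Foxk1, a repressor of autophagy genes, reached 31.8 ZIC2 peaks per 100 kb, whereas its relative Foxk2 had 6, or 6.36 per 100 kb, and more OTX2 peaks (12 in EpiSC and 6 in EpiSCA) than Foxk1 (6 and 4). Foxn3, a checkpoint factor with a window of 295.1 kb, also led for OTX2 in EpiSC, with 19 peaks, ahead of Foxj3 and Foxp1 with 14 each. Foxj3 had 14 OTX2, 6 SOX2, 3 POU5F1 and 8 POU3F1 peaks in EpiSC and 18, 7, 7 and 8 in EpiSCA. After Foxp2 and Foxp1 it had the most POU3F1 peaks in both cultures. Foxo1, which controls gluconeogenesis under insulin, had 8 ZIC2 and 11 OTX2 peaks in EpiSC and 7 and 8 in EpiSCA, Foxj2 9 and 8 in EpiSC and 7 and 4 in EpiSCA, Foxm1 5 and 5 in EpiSC and 6 and 5 in EpiSCA, and Foxn2 5 and 4 in EpiSC and 5 and 6 in EpiSCA.

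Subfamilies did not share one density, and relatives differed. FoxK held 19.5 ZIC2 peaks per 100 kb in EpiSC (13.8 to 26.8) and FoxO 15.8 (11.7 to 20.8), against 3.96 (2.86 to 5.36) for FoxP. For POU3F1 the order was the opposite, with 11.9 (9.91 to 14.2) for FoxP, 0.315 (0.00799 to 1.76) for FoxO, and no peak for FoxK, which allows up to 1.89. Without Foxp2 the FoxP genes held 3.13 POU3F1 and 7.52 ZIC2 peaks per 100 kb. FoxA and FoxC held 24.0 (15.2 to 36.0) and 21.9 (13.2 to 34.2) ZIC2 peaks per 100 kb, and FoxB 7.10 (2.61 to 15.5) and FoxI 5.75 (1.87 to 13.4), with 2 genes in each of the last 4. By gene length, the 19 genes with a body under 10 kb held 14.5 ZIC2 peaks per 100 kb in EpiSC (11.9 to 17.5) and all such genes 9.69, and the 16 longer genes held 10.1 (8.84 to 11.4) and all longer genes 7.03.

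Foxp1, Foxp2 and Foxp4 encode closely related repressors, active among other tissues in lung, gut and the developing brain, and Foxp2 is known for its part in vocal learning and corticostriatal circuits. In EpiSC Foxp2 had 6 ZIC2, 7 OTX2, 25 SOX2, 65 POU5F1 and 111 POU3F1 peaks, and in EpiSCA 7, 16, 35, 96 and 100. At Foxp4 ZIC2 peaks led instead. It had 17 ZIC2, 7 OTX2 and 1 POU5F1 peaks and no SOX2 or POU3F1 peak in EpiSC. In EpiSCA it had 21 ZIC2, 6 OTX2, 3 POU5F1 and 1 POU3F1 peaks and no SOX2 peak. Foxp1 had 19 ZIC2, 14 OTX2, 10 SOX2, 16 POU5F1 and 15 POU3F1 peaks in EpiSC and 11, 12, 11, 24 and 12 in EpiSCA. Per 100 kb of window Foxp1 lay between Foxp2 and Foxp4 for each TF in both cultures. For ZIC2 in EpiSC it had 4.98, against 1.03 at Foxp2 and 17.4 at Foxp4. Per 100 kb, POU3F1 in EpiSC thus reached 19.1 at Foxp2 and 3.93 at Foxp1. Among 670 protein-coding genes with a window of at least 300 kb, the median was 3.77.

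POU3F1 peaks covered 213.2 kb, or 36.7%, of the Foxp2 window in EpiSC and 38.1% in EpiSCA. POU5F1 peaks covered 15.7% and 27.5%, and ZIC2 peaks 1.08% and 1.05%. The POU3F1 peaks were spread along the gene, with 104 of 111 midpoints in the gene body, a median gap of 3.47 kb between adjacent midpoints and a largest gap of 21.7 kb. Of these peaks 35 were over 2000 bp wide in EpiSC, and the widest spanned 12876 bp. In EpiSCA 36 of 100 were over 2000 bp wide and the widest spanned 13317 bp. The strongest ZIC2 peak at Foxp2, in contrast, lay at its first TSS, with a score of 1144 in EpiSC and 984 in EpiSCA. By number of POU3F1 peaks Foxp2 ranked 49 of 22367 protein-coding genes in EpiSC and 47 in EpiSCA, and by number of POU5F1 peaks 19 and 43. Its share of all forkhead peaks was 75% for POU3F1, 57.0% for POU5F1 and 34.2% for SOX2 in EpiSC, and 72.5%, 53.0% and 37.6% in EpiSCA, against 1.71% and 2.23% for ZIC2.

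**Figure D2:**
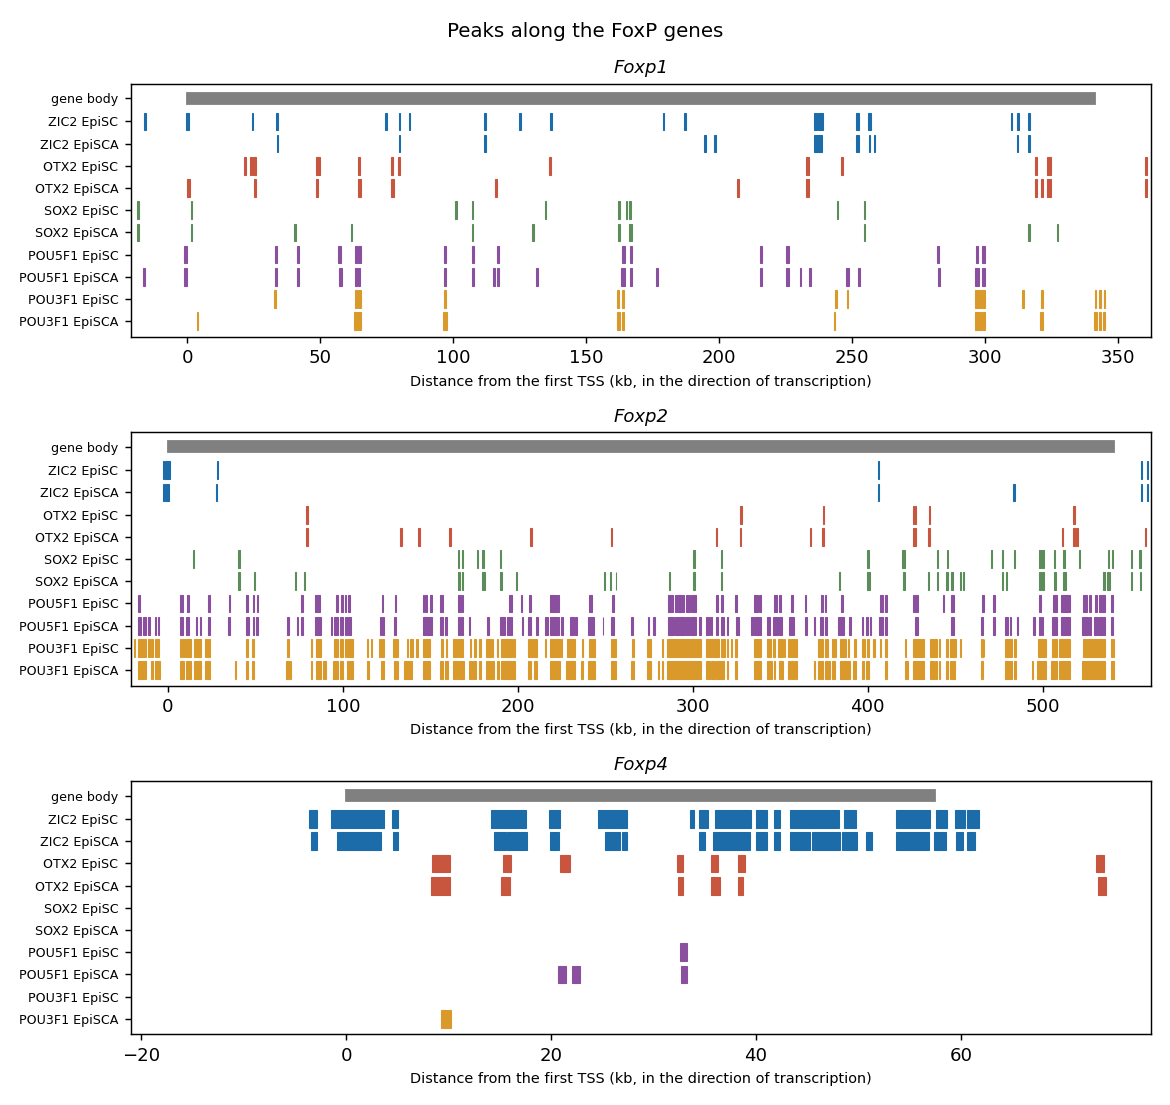
Peaks of the 10 lists drawn to scale along Foxp1, Foxp2 and Foxp4, with distance from the first TSS in kb on the horizontal axis and a lane for each list. Bars are peaks and the grey bar is the gene body. POU3F1 and POU5F1 bars fill the Foxp2 lanes, and at Foxp4 the ZIC2 bars do, with 17 peaks in EpiSC and 21 in EpiSCA.

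The density of ZIC2 peaks moved with the base composition of the windows. Windows of forkhead genes held 36.6 to 53.0% G and C, with a median of 47.5%, against a median of 44.4% over all genes. Across the 35 genes, Spearman's rho between the percentage of G and C and ZIC2 peaks per 100 kb was 0.89 in EpiSC and 0.90 in EpiSCA. For POU3F1 rho was -0.73 and -0.70, for SOX2 -0.55 and -0.53, for POU5F1 -0.22 and -0.29, and for OTX2 0.06 and -0.26. Foxp2 had the lowest percentage, and without it rho was 0.88 and 0.89 for ZIC2 and -0.70 and -0.67 for POU3F1. The points of each correlation come from 1 library, and some windows overlap. The part of base composition in the counts was not tested. At the other end of the range, the windows of Foxs1, Foxo6, Foxc2 and Foxj1 held 53.0, 52.5, 52.4 and 52.4% G and C and no POU3F1 peak. Absence was common, since only 14 of the 35 windows had a POU3F1 peak in EpiSC (all genes 37%) and 16 in EpiSCA (40%). Windows with less G and C, such as those of Foxi1 (45.7%) and Foxd1 (45.8%), also had none in either culture.

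**Figure D3:**
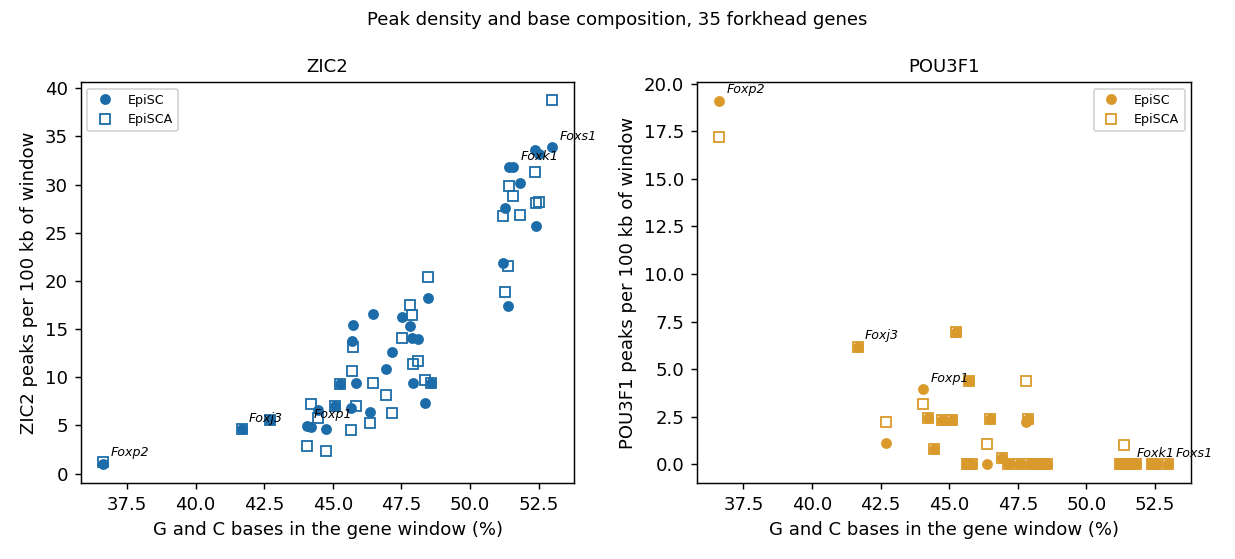
Peaks per 100 kb of window against the percentage of G and C in the window for the 35 forkhead genes, ZIC2 at left and POU3F1 at right, filled circles for EpiSC and open squares for EpiSCA. ZIC2 density rises from 1.03 at Foxp2 (36.6% G and C) to 33.9 at Foxs1 (53.0%) in EpiSC, and POU3F1 density is highest at Foxp2.

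Promoters, taken as 2 kb to either side of any annotated TSS, were bound by ZIC2 at nearly every forkhead gene. A ZIC2 peak was present at 33 of 35 promoters in EpiSC (71% of all protein-coding genes) and 34 in EpiSCA (69.5%), the exceptions being Foxr1 in both cultures and Foxi2 in EpiSC. Among genes with a body under 10 kb, 17 of 19 forkhead promoters had one in EpiSC, against 53.9% of all such genes, and all 16 longer forkhead genes did, against 82.1%. OTX2 peaks were present at 12 promoters in EpiSC (40.3%) and 11 in EpiSCA (35.4%), SOX2 peaks at 4 (12.6%) and 5 (18%), POU5F1 peaks at 2 (8.41%) and 5 (15.5%), and POU3F1 peaks at 1 (8.65%) and 1 (9.65%). As shares of 35, the counts of ZIC2 were above those over all genes and the counts of the other TFs below them. For OTX2, SOX2, POU5F1 and POU3F1 the differences were no more than a few genes of the 35, so no direction is read from them. Among genes under 10 kb, though, OTX2 peaks were present at 7 of 19 forkhead promoters in EpiSC against 27.2% of all such genes, and at 6 against 23.7% in EpiSCA. Among longer genes they were present at 5 of 16 forkhead promoters in EpiSC against 48.9%, and at 5 against 43.1% in EpiSCA.

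The ZIC2 promoter peaks were strong and wide. The highest promoter peak of each gene had a median score of 1668 in EpiSC, with a range of 281 to 3100, against a median of 658 over the 15870 protein-coding genes with such a peak. In EpiSCA the medians were 2046 and 803. Widths had a median of 2618 bp in EpiSC against 1476 bp over all genes, and 23 of 33 (69.7%) exceeded 2000 bp, against 26.0%. In EpiSCA 21 of 34 (61.8%) did, against 19.5%. The widest in EpiSC were at Foxo3 (5372 bp), Foxb2 (5139 bp) and Foxp4 (5132 bp), with scores of 3100, 3100 and 2978. The lowest scores were those of Foxn1 (281), Foxk2 (344) and Foxa1 (376) in EpiSC, and the highest promoter peaks of these genes scored 267, 245 and 964 in EpiSCA. At Foxa1 a stronger peak of 2362 lay inside the gene in EpiSC, and at Foxs1 a peak of 3070 lay outside the promoter, where the promoter peak scored 744.

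**Figure D4:**
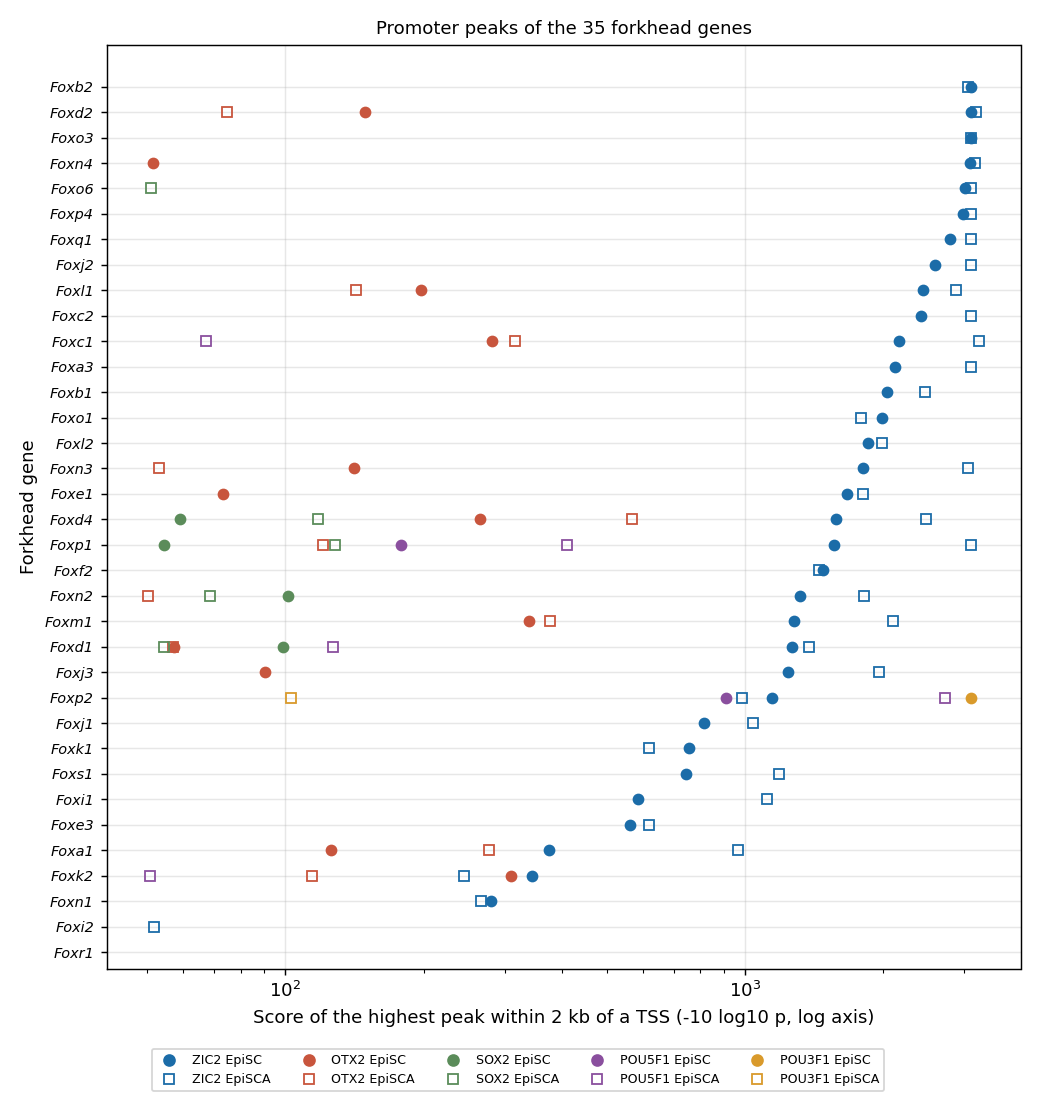
Score of the highest peak within 2 kb of a TSS on a log axis for each forkhead gene, coloured by TF, with filled circles for EpiSC and open squares for EpiSCA. ZIC2 scores lie from 281 to 3100 in EpiSC, above the OTX2 and SOX2 scores of the same promoters, and Foxr1 has no point.

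Promoter peaks of OTX2 and SOX2 scored below the ZIC2 peak of the same promoter at every gene that had both, and at Foxp2 POU3F1 in EpiSC and POU5F1 in EpiSCA scored above ZIC2. Promoter peaks of 3 TFs were found in EpiSC at 4 genes, Foxd1, Foxd4, Foxp1 and Foxp2, a count given without its share over all genes. At Foxd1 ZIC2 scored 1265, OTX2 57.3 and SOX2 99.2 in EpiSC, and 1377, 56.9 and 54.6 in EpiSCA, where POU5F1 joined with 127. At Foxd4 ZIC2 scored 1577, OTX2 265 and SOX2 59.2 in EpiSC, and 2471, 569 and 118 in EpiSCA. At Foxp1 ZIC2 scored 1558, SOX2 54.6 and POU5F1 179 in EpiSC, and 3100, 128 and 411 in EpiSCA, with an OTX2 peak of 121 in addition. These promoters therefore kept their TFs in EpiSCA and Foxd1 and Foxp1 had a further TF there. Foxp2 has 10 annotated TSSs, and at these ZIC2 scored 1144, POU5F1 909 and POU3F1 3100 in EpiSC and 984, 2723 and 103 in EpiSCA. The POU3F1 peak in EpiSC was 4880 bp wide with its midpoint at -422 bp from a TSS, and the peak counted in EpiSCA, 915 bp wide, lay at another TSS. Over the EpiSC peak, EpiSCA had a site of 12321 bp with a POU3F1 score of 3100, whose centre at -3967 bp was outside the promoter.

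The OTX2 promoter peaks of 12 genes had a median score of 145 in EpiSC and a median width of 882.5 bp, taking the highest peak of each gene. The highest were at Foxm1 (338 in EpiSC and 377 in EpiSCA), Foxk2 (310 and 115), Foxc1 (282 and 316) and Foxd4. Their midpoints lay 331 to 1608 bp from the TSS, and within 1 kb of a TSS only 4 genes in EpiSC and 3 in EpiSCA had an OTX2 peak, whereas within 5 kb there were 23 and 21. The median distance from the nearest TSS was 1160 bp for the highest OTX2 promoter peak of each gene in EpiSC and 1246 bp in EpiSCA. For ZIC2 it was 569 bp in EpiSC, with a range of 3 bp at Foxj3 to 1509 bp at Foxn1, and 526 bp in EpiSCA, with a range of 26 to 1963 bp.

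Distal peaks made up the larger part of every list. Promoter peaks were 12.8% of the forkhead ZIC2 peaks in EpiSC (9.51 to 16.8%) and 15.0% in EpiSCA (11.2 to 19.4%), against 6.86% and 6.90% for OTX2, 5.48% and 5.38% for SOX2, 2.63% and 2.76% for POU5F1, and 1.35% and 0.725% for POU3F1. ZIC2 promoter peaks had a median score of 1280 in EpiSC and a median width of 2194 bp, and intronic ZIC2 peaks 149 and 805 bp. Introns held 32.2% of ZIC2, 45.6% of OTX2, 60.3% of SOX2, 77.2% of POU5F1 and 82.4% of POU3F1 peaks in EpiSC. Upstream and downstream of the gene body lay 19.7% and 23.1% of ZIC2 peaks, and a further 5.98% lay at the promoter of a neighbouring gene. Intronic POU3F1 peaks were mostly those of Foxp2, with 104 of the 111 POU3F1 peaks of that window in the gene body. In EpiSC the Foxp2 body also held 64 POU5F1 and 23 SOX2 peaks, so the intron shares of these TFs rest in large part on that gene. Position shares over the whole lists are not given here.

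Most merged sites held peaks of 1 TF. Overlapping peaks, promoter peaks included, were merged into 670 sites in EpiSC and 650 in EpiSCA, of which 78.5% and 76.3% held 1 TF. Merging chained overlapping peaks, so the TFs of a site need not all overlap one another. The score of a TF at a site is that of its highest peak there. In EpiSC 121 sites held 2 TFs, 19 held 3, 2 held 4 and 2 held 5, and in EpiSCA 117, 28, 7 and 2. Site counts over the windows of all genes are not given here, so these numbers are not set against other genes. ZIC2 alone formed 272 sites in EpiSC, ZIC2 with OTX2 50, and POU5F1 with POU3F1 44. The sites of 5 TFs were the same pair in both cultures, in an intron of Foxn3 and upstream of Foxb1.

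The Foxn3 site, chr12:100537151-100538860, was 1710 bp wide with its centre 94001 bp after a TSS. There ZIC2 scored 69.7, OTX2 136, SOX2 107, POU5F1 924 and POU3F1 76.3 in EpiSC, and 77.5, 392, 270, 2138 and 334 in EpiSCA. POU5F1 was the strongest of the 5 in both cultures. The sequence printed above with 3 octamers is the centre of the narrowest peak of this site, a SOX2 peak. The Foxb1 site, chr9:69613701-69619013, was 5313 bp wide with its centre at -7610 bp from the TSS. There ZIC2 scored 830, OTX2 128, SOX2 545, POU5F1 758 and POU3F1 775 in EpiSC, and 1169, 180, 641, 712 and 2604 in EpiSCA. It holds the highest SOX2 score of any forkhead window in both cultures. In EpiSC the SOX2 peak with that score overlapped ZIC2 and OTX2 but no POU5F1 or POU3F1 peak.

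The Foxd1 site, chr13:99122583-99127733, spans the gene and its promoter and held ZIC2, OTX2, SOX2 and POU5F1 with scores of 1265, 199, 99.2 and 448 in EpiSC and 1377, 211, 94.2 and 2125 in EpiSCA. At the 3′ end of Foxa1, a site of 4648 bp held ZIC2 (1240), OTX2 (206), POU5F1 (99.7) and POU3F1 (297) in EpiSC. A site 11251 bp after the TSS of Foxe1 held ZIC2, OTX2 and POU5F1 with scores of 1706, 630 and 818 in EpiSC and 2875, 659 and 3100 in EpiSCA. All 8 EpiSC sites of SOX2, POU5F1 and POU3F1 lay at Foxp2, and no site of 3 or more TFs there held ZIC2 in either culture. In EpiSCA Foxj3 had 3 sites of OTX2, SOX2, POU5F1 and POU3F1, and at the strongest for OTX2 these scored 345, 270, 519 and 55.2.

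The pairing of TFs was read from the share of peaks that touched a peak of another TF, beside the same share over the whole list. Of forkhead OTX2 peaks, 34.3% (27.8 to 41.3%) overlapped ZIC2 in EpiSC against 17.8% of the list, and 23.6% (17.5 to 30.6%) against 12.0% in EpiSCA. The reverse share was 18.8% (14.9 to 23.3%) against 14.8% in EpiSC, and 13.7% (10.1 to 18.0%) against 12.7% in EpiSCA. Of forkhead POU5F1 peaks, 64.0% (54.5 to 72.8%) overlapped POU3F1 in EpiSC against 51.7%, and of POU3F1 peaks 43.9% (35.8 to 52.3%) overlapped POU5F1 against 28.0%. In EpiSCA these shares were 54.1% against 46.3% and 63.0% against 54.6%. Without Foxp2, 32.7% of POU5F1 peaks overlapped POU3F1 in EpiSC and 24.7% in EpiSCA, both below the list. Of POU3F1 peaks 48.6% (31.9 to 65.6%) then overlapped POU5F1 in EpiSC and 52.6% (35.8 to 69.0%) in EpiSCA. Of ZIC2 peaks, 1.14% touched POU3F1 in EpiSC against 1.16% of the list. Of POU3F1 peaks, 3.38% (1.11 to 7.71%) touched ZIC2 in EpiSC against 1.27% of the list, and 3.62% (1.19 to 8.25%) in EpiSCA against 2.02%. Without Foxp2 these were 5 of 37 POU3F1 peaks, or 13.5% (4.54 to 28.8%), in EpiSC and 4 of 38, or 10.53% (2.94 to 24.8%), in EpiSCA.

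Most forkhead peaks of EpiSC were found again after activin withdrawal. Of the EpiSC peaks 81.2% (76.7 to 85.1%) of ZIC2, 71.6% (64.8 to 77.6%) of OTX2, 75.3% (63.9 to 84.7%) of SOX2, 96.5% (91.3 to 99.04%) of POU5F1 and 84.5% (77.6 to 89.9%) of POU3F1 overlapped an EpiSCA peak of the same TF. The shares over the whole lists were 78.9%, 78.1%, 77.6%, 98.3% and 82.6%. In the other direction 95.5% of ZIC2, 79.3% of OTX2, 58.1% of SOX2, 57.5% of POU5F1 and 87.7% of POU3F1 peaks of EpiSCA overlapped EpiSC, against 91.2%, 67.5%, 55.9%, 47.1% and 86.8% of the lists. The intervals of the forkhead share excluded the list's share for OTX2 in both directions, lower for EpiSC peaks and higher for EpiSCA peaks, and, for EpiSCA peaks, for ZIC2 and POU5F1.

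**Figure D5:**
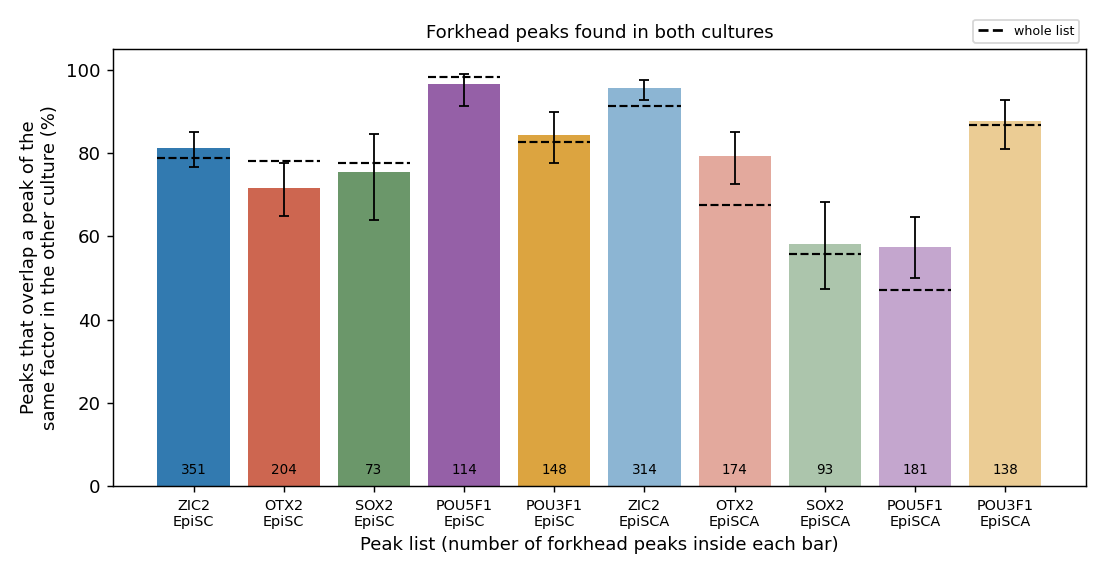
Percentage of forkhead peaks of each list that overlap a peak of the same TF in the other culture, with exact 95% intervals, the share over the whole list as a dashed line and the number of peaks inside each bar. POU5F1 shows the largest gap between directions, 96.5% for EpiSC peaks and 57.5% for EpiSCA peaks.

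Peaks found in 1 culture had low scores. Unshared EpiSC peaks had median scores between 58.7 (POU5F1) and 79.7 (ZIC2), and shared ones between 99.2 (SOX2) and 315 (POU3F1). In EpiSCA the unshared POU5F1 peaks had a median of 110, against 628 for shared ones. At promoters, some peaks had no overlapping peak of the same TF in the other culture. For OTX2 these lay at Foxe1 (73.2), Foxd1 (54) and Foxn4 (51.7) in EpiSC and at Foxn2 (50.4) and Foxp1 (121) in EpiSCA. For POU5F1 they lay in EpiSCA at Foxd1 (127), Foxc1 (67.3) and Foxk2 (50.7), and for SOX2 there at Foxo6 (51.2). The Foxd1 promoter had a further OTX2 peak in EpiSC (57.3), which overlapped one of EpiSCA. Of ZIC2 promoter peaks, 42 of 45 in EpiSC overlapped EpiSCA, and 47 of 47 in EpiSCA overlapped EpiSC. The OTX2 promoter peak of Foxj3 in EpiSC (90.4) and the ZIC2 promoter peak of Foxi2 in EpiSCA (51.8) also had no counterpart within 2 kb of the TSS, but each overlapped a peak of the other culture whose midpoint lay farther away. Several of these scores lie close to 50, the lowest of the lists.

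The numbers per gene shifted by TF. From EpiSC to EpiSCA, ZIC2 peaks became fewer at 19 genes and more at 11, and OTX2 peaks fewer at 19 and more at 5. The ZIC2 list was 0.896 times as long in EpiSCA and the forkhead count 0.895 times as high, so the forkhead count fell as the list did. POU5F1 peaks became more at 22 genes and fewer at 1, Foxd2. POU3F1 was equal at 29, most of them genes without a POU3F1 peak in either culture. The shares of all protein-coding genes that gained or lost peaks are not given here. The whole POU5F1 list was 2.03 times as long in EpiSCA and the forkhead count 1.59 times as high. For OTX2 the list was 1.10 times as long and the forkhead count 0.853 times as high. Scores of shared POU5F1 peaks rose by a median of 1.92 on the log2 scale at forkhead genes and 1.94 over the list, and 109 of 110 were higher in EpiSCA, against 98.4% of the list. For ZIC2 the median shift was 0.15 at forkhead genes and 0.12 over the list, for SOX2 0.46 and 0.43, for POU3F1 0.24 and 0.18, and for OTX2 0.15 and 0.43. At promoters, the ZIC2 score was higher in EpiSCA at 25 of 33 genes and lower at 7, and higher at 68.0% of the 15259 protein-coding genes with a ZIC2 promoter peak in both cultures. Scores depend on sequencing depth, which the lists do not give, so depth and culture cannot be told apart.

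Motifs were searched within 100 bp of each midpoint, on both strands, and in windows centred 1000 bp to either side. CCTGCTG was present at 17.7% of forkhead ZIC2 peaks in EpiSC (13.8 to 22.1%) and 19.1% of the list, against 4.84% of the flanking windows. GGATTA was present at 18.6% of OTX2 peaks (13.5 to 24.7%) and 23.6% of the list, against 9.07% of the flanks. ACAAAG or ACAATG was present at 57.5% of SOX2 peaks (45.4 to 69.0%) and 57.4% of the list, against 28.1% of the flanks. The octamers were present at 17.5% of POU5F1 peaks (11.1 to 25.8%) and 12.8% of POU3F1 peaks (7.91 to 19.3%), with 18.6% and 8.85% over the lists and 4.39% in the flanks of each. Forkhead peaks thus carried each motif more often than their flanks, and for all 5 TFs the interval included the share of the list. Within 250 bp, however, CCTGCTG was present at 27.6% of forkhead ZIC2 peaks in EpiSC (23.02 to 32.6%) against 34.7% of the list, and at 30.3% (25.2 to 35.7%) against 36.8% in EpiSCA. Runs of at least 20 bases of alternating purine and pyrimidine, as in the Foxn4 sequence, lay at 27 of 114 POU5F1 peaks in EpiSC (23.7%, list 29.6%) and 40 of 181 in EpiSCA (22.1%, list 21.4%), and at 2.70% of POU3F1 and 1.14% of ZIC2 peaks in EpiSC. The 250 bp before the outermost TSS held CCTGCTG at 2 of 35 forkhead genes, Foxa3 and Foxi1, and at 8.01% of all protein-coding genes. GGATTA was there at Foxd4 and Foxn3 (all genes 6.34%), a SOX2 motif at Foxa1, Foxj2, Foxl1 and Foxp1 (22.7%), and an octamer at none of the 35 (2.20%).

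ZIC2 peaks were also dense in other gene families. The windows of 40 Hox genes, another family of developmental regulators, held 24.9 ZIC2 and 0.485 POU3F1 peaks per 100 kb in EpiSC. Those of 79 ribosomal protein genes held 14.7 and 0.494. The forkhead values of 11.1 and 4.70 lay below both for ZIC2 and above both for POU3F1, and without Foxp2 they were 13.4 and 1.44.

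At the border of the windows, the last midpoints inside were a SOX2 peak in EpiSCA 19966 bp from Foxm1 (score 67.2), an OTX2 peak in EpiSC 19892 bp from Foxj2 (130) and a ZIC2 peak in EpiSCA 19878 bp from Foxk1 (205). The nearest outside were ZIC2 peaks 20032 and 20064 bp from Foxc1 in EpiSC and EpiSCA (59.2 and 57.3) and 20091 bp from Foxl2 in EpiSC (455).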

How the data were processed

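Per the study's methods, the authors aligned reads to mm9 with Bowtie2 (version not given in the sources used here) and called peaks with MACS1.4 against input DNA, at default settings apart from a changed band width. The deposited lists give the position and score of every peak, without reads, so depth per library is unknown. The deposited score is 10 times the negative log10 of the p-value. The 10 lists were read per factor and culture, 1 library each, without pooling, and 1416 peaks off chromosomes 1 to 19, X and Y entered no window.

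Gene bodies and TSSs were taken from GENCODE vM1. Foxl1 is annotated there as a pseudogene, so it is not among the 22367 protein-coding genes and its own transcript gave its TSS. Overlap required 1 bp. Intervals are exact (Clopper-Pearson for shares, Poisson for densities). The members, roles and lists were chosen with earlier results of these data known. All 35 genes were accounted for, and those given in full were the 3 densest in EpiSC, the 3 with most peaks of each TF, those with promoter peaks of 3 or more TFs, up to 5 promoter peaks of 1 culture and the 3 sites with most TFs. Further genes and sites described were picked with their values in view. Alternatives changed the score minimum, list length, window, promoter width, overlap and motif window. Window and overlap counting was tested on simulated data. Sequences were read with pysam 0.24.0, statistics used scipy 1.17.1 and numpy 2.4.6 under Python 3.11.15, and figures matplotlib 3.10.9.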

Additional observations from a re-analysis of the deposited data

How the results depend on the processing

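No paired analysis was possible because each TF had 1 library per culture. The number of forkhead genes with a peak and the density ratios stayed within their intervals with windows of 10 kb to either side and with any overlap of a peak with the window. With 50 kb to either side the density ratio was 1.15 for POU5F1 and 0.941 for POU3F1 in EpiSC, and 0.989 and 0.983 in EpiSCA. Without Foxp2, chosen after seeing the data, it was 1.96 (ZIC2), 1.37 (OTX2), 0.776 (POU5F1) and 0.390 (POU3F1) in EpiSC, and 1.94 (ZIC2), 0.683 (SOX2), 0.686 (POU5F1) and 0.446 (POU3F1) in EpiSCA. POU3F1 peaks of EpiSCA then overlapped EpiSC at 73.7%, POU5F1 peaks overlapped POU3F1 at 32.7% in EpiSC and 24.7% in EpiSCA, and POU3F1 peaks overlapped POU5F1 at 52.6% in EpiSCA. With each list reduced to its 50000 strongest peaks, the ratio was 1.84 for ZIC2 and 1.52 for POU5F1 in EpiSCA, POU3F1 reached 6 genes in EpiSC and 8 in EpiSCA, and promoter counts were 2 for SOX2 in each culture and 5 (OTX2), 2 (POU5F1) and 0 (POU3F1) in EpiSCA. Shares common to both cultures were then 91.2% (ZIC2), 89.9% (POU5F1) and 90.7% (POU3F1) for EpiSC, and 91.9% (ZIC2) and 91.4% (POU5F1) for EpiSCA. With a score of at least 100, SOX2 reached 12 genes and 1 promoter in EpiSC and 2 promoters in EpiSCA, and OTX2 and POU5F1 reached 7 and 3 promoters in EpiSCA. The shared shares were 79.6% (OTX2), 88.9% (SOX2) and 100% (POU5F1) for EpiSC, and 92.2% (ZIC2) and 93.3% (POU3F1) for EpiSCA. Within 1 kb of a TSS, promoter counts were 4 (OTX2), 1 (SOX2) and 1 (POU5F1) in EpiSC and 3, 2 and 2 in EpiSCA. Within 5 kb they were 23, 8 and 4 in EpiSC, and 21 (OTX2), 9 (SOX2) and 2 (POU3F1) in EpiSCA. Reciprocal overlap of 50% gave shared shares of 75.2% (ZIC2), 63.2% (OTX2), 79.8% (POU5F1) and 75% (POU3F1) for EpiSC, and 84.1% (ZIC2) and 80.4% (POU3F1) for EpiSCA. It lowered the overlap of ZIC2 with OTX2 to 2.56% in EpiSC and 2.55% in EpiSCA, of OTX2 with ZIC2 to 4.41% and 4.60%, of POU5F1 with POU3F1 to 27.2% and 33.1%, and of POU3F1 with POU5F1 to 20.9% and 43.5%. Of the other values, 31 of 32 overlaps moved under this rule, 11 of 32 without Foxp2 and 18 of 30 densities of groups without their longest gene. Motifs within 250 bp were present at 27.6% (ZIC2), 40.7% (OTX2), 79.5% (SOX2), 30.7% (POU5F1) and 20.9% (POU3F1) of EpiSC peaks, against 34.7%, 40.8%, 81.7%, 29.7% and 18.6% of the lists, a wider window holding more matches by construction. The cause of the other changes was not tested.

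The lists give no reads, so depth, background and peaks under a score of 50 are unknown. Only 1 library per TF and culture was available, the tagged TFs were added to the endogenous ones, and TSSs of unused transcripts count as promoters.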
